A study of Mus musculus with 18 samples.

Results

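The genes of fatty acid uptake and oxidation were followed in 3 tissues (skeletal muscle, heart, hippocampus) of mice carrying the calcium indicator transgene TN-XXL and of their wild type littermates. Members were taken from a list of gene names that was drawn up with earlier results of these data known, so their shares of calls are a description. They were the 33 listed genes for lipoprotein lipase and fatty acid transport, the carnitine shuttle, mitochondrial beta-oxidation, electron transfer from it, the malonyl-CoA switch, 3 transcriptional regulators and 2 mitochondrial uncoupling carriers. A member counted as measured where the platform annotation gave at least 1 probe set its symbol and no other. This held for 29 of the 33 genes, on 32 of the 35382 probe sets. Fabp3, Hadhb and Ppargc1a had 2 probe sets each. Acadvl and Cpt1b were found only on probe sets that carry several symbols, Acsl1 and Ucp2 had no single-symbol probe set, and none of these 4 was given a value. Cpt1b encodes the carnitine palmitoyltransferase that predominates in striated muscle, so the entry step of that tissue was read here only through Cpt1a, the broadly expressed isoform.

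Striated muscle draws much of its energy from fatty acids, and the heart does so almost continuously. Lipoprotein lipase frees fatty acids from circulating lipoproteins, and the transporters CD36 and FATP1 (the product of Slc27a1) help them into the cell. The carnitine shuttle carries them across the mitochondrial membranes. There acyl-CoA dehydrogenases start each turn of beta-oxidation and pass electrons to the electron transfer flavoprotein, from which ETF dehydrogenase hands them to ubiquinone. Malonyl-CoA, made by acetyl-CoA carboxylase and removed by malonyl-CoA decarboxylase (Mlycd), inhibits the entry step. The nuclear receptors PPAR-alpha and PPAR-delta and the coactivator PGC-1alpha drive transcription of many of these genes. Neurons oxidise little fatty acid by comparison.

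The 18 arrays formed 6 groups of 3, a wild type and a transgenic group in each tissue, all on the C57BL/6 strain. The transgenic samples are titled +/+, and the wild type samples wt. TN-XXL reports calcium through a change in fluorescence and takes its sensing domain from troponin C. Neither the promoter that drives it nor the age and sex of the mice is stated by the labels. Labels number the arrays of a group without saying whether equal numbers mark 1 animal, and they name no separate animals, so the p-values reflect the spread among these arrays alone, which may be technical. All levels are log2 values of 1 probe set, and genotype differences are transgenic minus wild type ± the fitted SE, with n = 3 arrays per group. A difference was called where its Benjamini-Hochberg adjusted p from limma over all probe sets was under 0.05. In these bulk samples fewer cells of a type and less RNA per cell cannot be told apart.

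The start regions of Mlycd and Etfa, the members with the largest genotype differences in muscle and heart, are shown first, because the differences below concern their transcripts. RefSeq windows of 250 bases before to 50 bases after each start (build GRCm38.p6) were found for 28 of the 33 genes and for 7 of the 8 genes called between genotypes, all but Lpl. The upstream bases of Mlycd (chr8:119394644-119394851, plus strand) and of Etfa (chr9:55512244-55512493, minus strand) carry no capitals because none of the motifs searched lies in them. The Mlycd stretch holds 208 bases. It stops where the annotated span of the gene begins, short of the start used for its window. The third line is the 30-base stretch around the only E-box found in a member's window (chr8:71570380-71570409, plus strand, 202 bases before 1 of the 3 starts of Slc27a1), with the E-box in capitals. This stretch lies inside the annotated span of Slc27a1, downstream of its other starts.
Mlycd: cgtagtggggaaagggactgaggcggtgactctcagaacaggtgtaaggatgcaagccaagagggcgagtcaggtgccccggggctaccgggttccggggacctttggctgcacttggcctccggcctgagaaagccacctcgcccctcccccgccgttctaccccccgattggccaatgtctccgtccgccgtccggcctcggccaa
Etfa: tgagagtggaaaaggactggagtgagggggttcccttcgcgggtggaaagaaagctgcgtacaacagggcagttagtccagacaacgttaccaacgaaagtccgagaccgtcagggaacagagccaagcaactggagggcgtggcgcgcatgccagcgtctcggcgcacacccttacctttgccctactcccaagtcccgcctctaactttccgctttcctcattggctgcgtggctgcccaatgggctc
Slc27a1: ggggtgtctagcCACGTGgtcagtgcttgg

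Motifs were searched on both strands of the 31 member windows and of all 32851 windows. The E-box CACGTG, read by clock and MYC family factors, was found in 1 member window (3.23%) against 7.15% of all windows. The core site AGGTCA, which many nuclear receptors bind, was found in 7 member windows (22.6%; Acacb, Acadm, Acadvl, Cd36, Cpt1a, Echs1 and, with 2 matches, Ucp3) against 16.3% of all. None of these 7 genes was called between genotypes, Acadvl not being measured. The direct repeat of AGGTCA spaced by 1 base, which PPAR binds with RXR and which contains the core site, was found in 0 member windows against 0.0396% of all. The extended site of the estrogen-related receptors (AAGGTCA after a T and any 1 base), which also contains it, was found in 0 against 1.28%. The glucocorticoid receptor palindrome of AGAACA and TGTTCT spaced by 3 bases was found in 0 against 0.00913%. A missing match says only that these letters are not in the window.

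Across probe sets, arrays within a group correlated with each other at 0.982 to 0.993. Array medians were 2.44 to 2.49 in skeletal muscle, 2.61 to 2.63 in heart and 3.68 to 3.71 in hippocampus. Tissue labels were checked on defining markers. Myh4 of fast fibres averaged 11.43 in wild type muscle and 1.90 in wild type heart, Tnni3 of cardiomyocytes averaged 11.69 in wild type heart and 2.36 in muscle, and Snap25 of neurons averaged 11.30 in wild type hippocampus and 1.79 in muscle. Myh6 was not analysed here, having no single-symbol probe set.

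In skeletal muscle of transgenic mice, 7 of the 29 measured genes were lower and 1 was higher than in wild type muscle. Those that fell were Mlycd, Etfa, Etfb, Acadl, Lpl, Ppard and Slc27a1, and Acot2 rose. Mlycd was 2.82-fold lower, and the others differed by 1.28-fold to 1.73-fold. The 8 called genes were 27.6% of the members, where 8.15% of all probe sets were called in this comparison (3.86% higher and 4.3% lower). Over all 29 genes the median difference was −0.11, against 0.02 over all probe sets, and 18 of 29 differences were negative, as were 46.9% of all. With a 1.5-fold minimum as well, 3 of the 29 passed, where 3.64% of all probe sets did. Using the 6 muscle arrays alone, limma called 4 of the 29 (Mlycd, Etfa, Lpl and Ppard, all lower), where 2.37% of all probe sets were called. At an unadjusted p under 0.05 there were 15 members in the fit to all arrays, where 19.1% of probe sets had such a p.

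**Figure D1:**
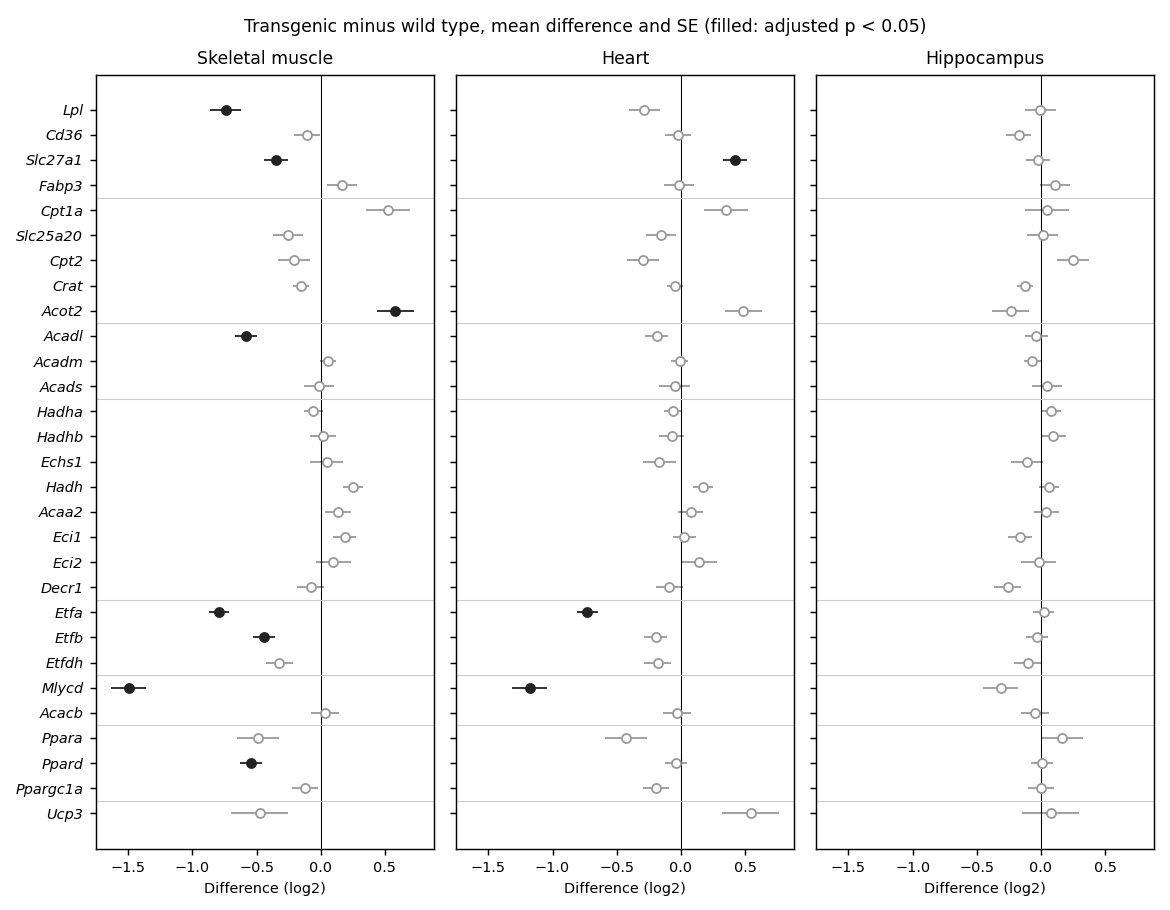
Genotype difference (transgenic minus wild type, log2) of each of the 29 measured genes in skeletal muscle, heart and hippocampus, with bars for the fitted SE and n = 3 arrays per group. Filled points are called at adjusted p under 0.05: 8 in muscle, 3 in heart and 0 in hippocampus. Grey lines separate the roles of the genes.

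The largest difference was on the malonyl-CoA switch. Mlycd (probe set 10575867) read 5.112, 5.100 and 4.999 on the wild type muscle arrays and 3.576, 3.372 and 3.772 on the transgenic ones. The groups lay far apart. The transgenic values stood above the array medians of muscle (2.44 to 2.49), but not far above, so the size of the difference is not read closely. The difference was −1.497 ± 0.13 (2.82-fold lower, adjusted p = 4.76e-06), and its adjusted p ran from 1.82e-06 to 0.00563 over 15 other fits. Acacb, which encodes the mitochondrial acetyl-CoA carboxylase that makes malonyl-CoA, read 8.62, 8.68 and 8.70 in wild type and 8.66, 8.74 and 8.70 in transgenic muscle. Its groups overlapped, with a difference of 0.04 ± 0.11 (adjusted p = 0.918).

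All 3 measured genes of electron transfer from the dehydrogenases stood lower on every transgenic muscle array than on every wild type array, and 2 of them passed the test. Etfa (probe set 10593789), the alpha subunit of the electron transfer flavoprotein, read 6.87, 6.90 and 6.99 in wild type and 6.08, 6.17 and 6.12 in transgenic muscle. Its difference was −0.79 ± 0.08 (1.73-fold lower, adjusted p = 1.57e-05). Etfb (probe set 10552418), the beta subunit, read 9.76, 9.69 and 9.70 against 9.11, 9.47 and 9.23. Transgenic array 2 lay nearest to the wild type group. The difference of Etfb was −0.45 ± 0.09 (1.36-fold lower, adjusted p = 0.00382), with an adjusted p of 0.12 from the muscle arrays alone and 7.95e-04 to 0.12 over 15 fits. Etfdh, which encodes ETF dehydrogenase, read 8.01, 7.83 and 7.78 against 7.52, 7.66 and 7.45. Its groups did not overlap either, but its difference of −0.32 ± 0.10 did not pass (adjusted p = 0.0763). Of all probe sets 10.3% had their 3 transgenic muscle arrays below all wild type arrays, and 10 of the 29 members did.

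Among the genes of uptake, Lpl and Slc27a1 fell in muscle while Cd36 and Fabp3 did not pass. Lpl (probe set 10572130) read 9.08, 9.14 and 9.21 in wild type and 8.51, 8.54 and 8.16 in transgenic muscle. Every transgenic array was lower, array 3 most. The difference was −0.74 ± 0.12 (1.67-fold lower, adjusted p = 9.38e-04), and the call was kept in all 15 other fits. Slc27a1 (probe set 10572647) read 8.24, 8.06 and 8.27 in wild type and 7.94, 7.97 and 7.61 in transgenic muscle. The groups came close to each other, and array 3 was again the lowest. Its difference was −0.35 ± 0.09 (1.28-fold lower, adjusted p = 0.0303). That call was lost with the muscle arrays alone (adjusted p = 0.265), after quantile normalization (0.0642) and without wild type array 1 (0.0988), wild type array 3 (0.111) or transgenic array 3 (0.125), where the difference was −0.23. The fatty acid transporter gene Cd36 differed by −0.11 ± 0.10 (adjusted p = 0.641). Fabp3, the fatty acid binding protein of muscle and heart, read 9.35, 9.10 and 9.51 in wild type and 9.50, 9.58 and 9.37 in transgenic muscle. The groups overlapped, with a difference of 0.16 ± 0.12 (adjusted p = 0.527) and 0.22 by its second probe set (adjusted p = 0.339).

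Adipocytes and endothelial cells of muscle tissue also express genes of fatty acid uptake, so their markers are given here. Of all probe sets 8.15% were called in muscle. All 9 endothelial markers had a negative difference in muscle, with a median of −0.49, and 4 of 9 fell (Tek, Cldn5, Emcn and Egfl7; Tek alone, at an adjusted p of 0.0314, with the muscle arrays only). Without wild type array 1, transgenic array 2 or transgenic array 3 of muscle, 2 of 9 fell. Their summed level was 9.81 to 10.00 in wild type and 9.36 to 9.70 in transgenic muscle. Of the defining genes Pecam1 averaged 6.60 and 6.43, and Cdh5 7.95 and 7.78, in wild type and transgenic muscle, with overlapping arrays. All 6 white adipocyte markers had a positive difference, with a median of 0.63, and 1 of 6 rose (Adipoq, 0.83, adjusted p = 0.0224, and 0.248 with the muscle arrays alone). That call was also lost without wild type array 3, transgenic array 1 or transgenic array 3 (adjusted p = 0.092, 0.0814 and 0.102). The count of adipocyte markers that rose was 2 of 6 without wild type array 1, wild type array 2 or transgenic array 1, with the replicate number as a fixed block and without dim probe sets, and 0 of 6 without array 3 of either genotype. Their summed level was 8.34 to 8.80 in wild type and 8.87 to 9.09 in transgenic muscle, and Cidec averaged 5.90 and 6.46 and Plin1 4.81 and 5.58. The part of these cell types in the differences of Lpl and Slc27a1 was not tested.

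Of 8 markers of skeletal fibres 0 were called, with summed levels of 14.55 to 14.61 in wild type and 14.57 to 14.61 in transgenic muscle. Of 5 slow fibre markers 0 were called, with overlapping sums of 10.78 to 10.95 and 10.26 to 11.17. Without transgenic array 2, 2 of these 5 were called lower, and 1 was without transgenic array 1 or without dim probe sets. At an unadjusted p under 0.05 there were 0 of the 8 skeletal fibre markers and 2 of the 5 slow fibre markers, Myl3 (−0.51) and Atp2a2 (−0.52). Of 6 cardiomyocyte markers Actc1 rose in muscle, of 6 macrophage markers Cd68 rose by 0.93 (summed level 6.47 to 7.07 against 7.03 to 7.40), and of 6 neuronal markers Camk2a fell. With the muscle arrays alone none of these 3 was called (adjusted p = 0.0603, 0.073 and 0.0649). Without wild type array 1, 2 of the 6 macrophage markers rose. Of the neuronal markers 0 were called without wild type array 2, and 2 without transgenic array 1 (1 higher and 1 lower). Of 5 astrocyte, 2 oligodendrocyte and 4 brown adipocyte markers 0 were called in muscle.

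In the first oxidation step, the long-chain enzyme gene fell and the medium-chain and short-chain genes did not pass. Acadl (probe set 10355246), the long-chain acyl-CoA dehydrogenase, read 8.02, 8.12 and 8.35 in wild type and 7.62, 7.60 and 7.52 in transgenic muscle. Every transgenic array was lower, and the wild type arrays were spread more widely than the transgenic ones. The difference was −0.58 ± 0.09 (1.499-fold lower, adjusted p = 5.27e-04), with an adjusted p of 0.058 from the muscle arrays alone and 1.48e-04 to 0.058 over 15 fits. Acadm, the medium-chain enzyme, read 10.13, 10.07 and 10.18 in wild type and 10.08, 10.25 and 10.23 in transgenic muscle. Its groups overlapped, with a difference of 0.06 ± 0.06 (adjusted p = 0.725). Acads, the short-chain enzyme, differed by −0.01 ± 0.12 (adjusted p = 0.976).

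On the carnitine shuttle and its side reactions, 1 of 5 measured genes was called in muscle. Acot2 (probe set 10397145), a mitochondrial thioesterase that releases free fatty acid from acyl-CoA, read 7.79, 7.62 and 8.20 in wild type and 8.66, 8.57 and 8.13 in transgenic muscle. Transgenic arrays 1 and 2 were high, and transgenic array 3 lay below wild type array 3. Acot2 rose by 0.58 ± 0.15 (1.496-fold, adjusted p = 0.0206), but not with the muscle arrays alone (adjusted p = 0.234) nor without wild type array 1 (0.0744), wild type array 2 (0.101), transgenic array 1 (0.0882) or transgenic array 2 (0.0792). Acot2 has a close paralog in Acot1, and whether the probe set separates them was not tested. Cpt1a, the entry enzyme, read 5.29, 5.26 and 6.04 in wild type and 6.19, 6.11 and 5.87 in transgenic muscle. Wild type array 3 lay among the transgenic arrays. The difference of 0.53 ± 0.17 did not pass (adjusted p = 0.0791), and without that array it was 0.78 (adjusted p = 0.00146).

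The other genes of the shuttle differed less. Crat, carnitine acetyltransferase, read 10.39, 10.48 and 10.41 in wild type and 10.27, 10.28 and 10.28 in transgenic muscle. All transgenic arrays were lower by a small step, with a difference of −0.15 ± 0.06 that did not pass (adjusted p = 0.165). The carnitine-acylcarnitine carrier gene Slc25a20 differed by −0.26 ± 0.12 (adjusted p = 0.257), and Cpt2, the inner membrane transferase, by −0.21 ± 0.12 (adjusted p = 0.414).

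Of the 8 genes for later steps and auxiliary enzymes of beta-oxidation, 0 were called in muscle, and 1 of 8 had an unadjusted p under 0.05. Their differences ran from −0.08 to 0.25, with a median of 0.07 and 6 of 8 positive. Hadh, the short-chain 3-hydroxyacyl-CoA dehydrogenase, read 10.03, 9.95 and 9.98 in wild type and 10.21, 10.34 and 10.16 in transgenic muscle. It was the only member whose transgenic muscle arrays all lay above the wild type arrays, as did 11.6% of all probe sets. Its difference of 0.25 ± 0.08 did not pass (adjusted p = 0.0555). The trifunctional protein subunits Hadha and Hadhb differed by −0.06 ± 0.07 and 0.02 ± 0.10. The thiolase gene Acaa2 differed by 0.13 ± 0.10 and the hydratase gene Echs1 by 0.05 ± 0.13. The genes for enzymes that handle unsaturated chains, Eci1, Eci2 and Decr1, differed by 0.19 ± 0.09, 0.10 ± 0.14 and −0.08 ± 0.10.

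Of the 3 transcriptional regulators, Ppard fell in muscle. Ppard (probe set 10443332), which encodes PPAR-delta, read 7.01, 7.11 and 7.14 in wild type and 6.43, 6.57 and 6.63 in transgenic muscle. The groups were clearly apart, with a difference of −0.55 ± 0.09 (1.46-fold lower, adjusted p = 7.38e-04) that was called in all 15 other fits. Ppara, which encodes PPAR-alpha, read 5.55, 5.47 and 5.74 against 4.67, 5.38 and 5.23. All transgenic arrays were lower, array 1 far more than the others. Its difference of −0.49 ± 0.16 did not pass (adjusted p = 0.0876). Of the fits that left out a muscle array, it passed only without transgenic array 2 (−0.64, adjusted p = 0.0359). That fit keeps the low transgenic array 1, and without array 1 Ppara was not called. Ppargc1a, which encodes PGC-1alpha, read 7.87, 7.97 and 7.72 against 7.64, 7.72 and 7.83. Its groups overlapped on this probe set (−0.12 ± 0.10, adjusted p = 0.593), and its other probe set gave −0.47 ± 0.14 (adjusted p = 0.0575). The uncoupling carrier gene Ucp3 read 6.60, 7.18 and 7.11 against 6.65, 6.45 and 6.36. Wild type array 1 lay within the transgenic range, and the difference of −0.48 ± 0.22 did not pass (adjusted p = 0.255).

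**Figure D2:**
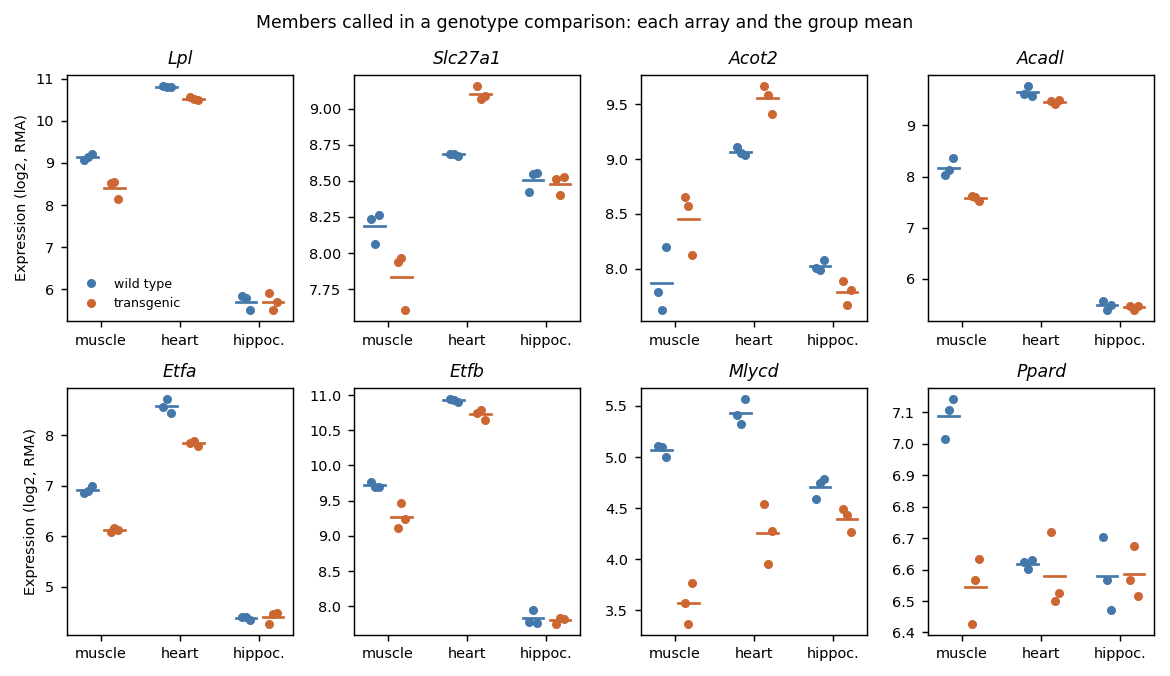
Level (log2) on each array of the 8 genes called between genotypes, by tissue and genotype, with a bar at the mean of each group of 3 arrays. The vertical axes differ between genes and do not start at 0. Mlycd and Etfa were lower on every transgenic array in muscle and heart, and Slc27a1 was lower in transgenic muscle and higher in transgenic heart.

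In heart, 3 of the 29 measured genes were called. Mlycd and Etfa fell in transgenic heart as they did in muscle, and Slc27a1 rose. These were 10.3% of the members, where 3.19% of all probe sets were called (1.57% higher and 1.62% lower). The median difference over the 29 genes was −0.05 against 0.00 over all probe sets, and 21 of 29 were negative, as were 49.3% of all. Using the 6 heart arrays alone, limma called 0 of the 29, and 8 had an unadjusted p under 0.05, where 0.102% of all probe sets were called and 12% had such a p. In the fit to all arrays 11 members and 15% of probe sets had an unadjusted p under 0.05.

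Mlycd read 5.41, 5.33 and 5.57 on the wild type heart arrays and 4.54, 3.95 and 4.28 on the transgenic ones. The groups were well apart, and transgenic array 2 was the lowest. The difference was −1.18 ± 0.13 (2.26-fold lower, adjusted p = 2.48e-04). Etfa read 8.55, 8.72 and 8.44 in wild type and 7.84, 7.88 and 7.79 in transgenic heart. Every transgenic array lay well below every wild type array. The difference was −0.73 ± 0.08 (1.66-fold lower, adjusted p = 2.08e-04). From the heart arrays alone both genes had an adjusted p of 0.072, the highest of their 15 other fits, and both were called in the remaining fits. Slc27a1 read 8.69, 8.69 and 8.67 against 9.16, 9.06 and 9.09. The 3 wild type arrays were nearly equal and all transgenic arrays were higher. It rose by 0.42 ± 0.09 (1.34-fold, adjusted p = 0.0243), a call lost with the heart arrays alone (0.122), after quantile normalization (0.073), and without any of the 6 heart arrays in turn (0.0534 to 0.0707).

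None of the other 26 genes was called in heart. Lpl read 10.83, 10.80 and 10.80 in wild type and 10.58, 10.51 and 10.49 in transgenic heart. All transgenic arrays were lower, with a difference of −0.29 ± 0.12 that did not pass (adjusted p = 0.264). Acadl read 9.61, 9.77 and 9.57 against 9.47, 9.42 and 9.48, again apart but not called (−0.19 ± 0.09, adjusted p = 0.327). Acot2 read 9.11, 9.06 and 9.04 against 9.67, 9.58 and 9.41. Its transgenic arrays were all higher, with a difference of 0.49 ± 0.15 (adjusted p = 0.0935, and 0.0484 when dim probe sets were left out). Etfb differed by −0.20 ± 0.09 (adjusted p = 0.289) and Etfdh by −0.18 ± 0.10 (adjusted p = 0.471). Ppara read 7.46, 7.30 and 7.40 against 6.63, 7.13 and 7.13, with array 1 lowest as it was in transgenic muscle. The difference of −0.42 ± 0.16 did not pass (adjusted p = 0.214). Cpt1a differed by 0.35 ± 0.17 (adjusted p = 0.359), Cpt2 by −0.30 ± 0.12 (adjusted p = 0.263) and Ppargc1a by −0.20 ± 0.10 (adjusted p = 0.397). The other probe set of Ppargc1a gave −0.35 ± 0.14 (adjusted p = 0.243). Ucp3 read 5.40, 5.32 and 6.14 against 6.41, 6.11 and 5.97. Wild type array 3 lay within the transgenic range, and the difference of 0.54 ± 0.22 did not pass (adjusted p = 0.242).

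The 8 genes of later steps differed in heart by −0.17 to 0.17, with 4 of 8 negative and 0 called. Ppard differed by −0.04 ± 0.09 and Acadm by −0.01 ± 0.06. Transgenic arrays lay fully above the wild type arrays for 4 members (Acot2, Eci1, Hadh and Slc27a1) and fully below for 8 (Acadl, Cpt2, Etfa, Etfb, Lpl, Mlycd, Ppara and Slc25a20), where 9.19% and 9.35% of all probe sets did so.

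Markers also moved in heart, where 3.19% of all probe sets were called. All 9 endothelial markers had a negative difference, with a median of −0.30, and 2 of 9 fell (Tek and Cldn5, each lost without 5 of the 6 heart arrays in turn; 0 with the heart arrays alone). Their summed level was 10.96 to 11.04 in wild type and 10.53 to 10.74 in transgenic heart, and Pecam1 averaged 7.37 and 7.09 and Cdh5 8.75 and 8.52. Of 6 white adipocyte markers 0 were called, and the defining markers Adipoq, Cidec and Plin1 averaged 1.96 to 2.33 in the heart groups, under the array medians. Of 6 cardiomyocyte markers 2 were called, and 5 of 6 differences were positive. Nppa, a natriuretic peptide gene, rose by 1.36 ± 0.15 (adjusted p = 1.87e-04), and Ryr2 fell by 0.38. Of 8 skeletal fibre markers 1 was called, Acta1, which fell by 1.18, and 3 of 8 differences were positive. Of 5 slow fibre markers 1 was called, Myh7, which fell by 0.80, and 1 of 5 differences was positive. The call of Myh7 was lost without 4 of the 6 heart arrays in turn. The only called marker of 5 for astrocytes was Gja1, which heart muscle also expresses. It fell by 0.74, and 2 of 5 differences were positive. With the heart arrays alone the adjusted p of these 5 genes ran from 0.052 to 0.146. The part of these changes in the differences of Mlycd, Etfa and Slc27a1 was not tested. Of the macrophage, neuronal, oligodendrocyte and brown adipocyte markers 0 were called in heart, but 1 neuronal marker rose without wild type array 2 or without dim probe sets.

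Whether the genotype difference was the same in the 3 tissues was tested directly. Of the 29 genes, 5 had different genotype differences by a moderated F test (17.2%, where 3.89% of all probe sets were called). They were Etfa (F = 31.3, adjusted p = 0.00102), Mlycd (F = 20.7, adjusted p = 0.00498), Slc27a1 (F = 17.1, adjusted p = 0.00941), Ppard (F = 12.8, adjusted p = 0.024) and Acadl (F = 10.3, adjusted p = 0.0442). For Etfa the differences were −0.79 in muscle, −0.73 in heart and 0.02 in hippocampus, and for Mlycd −1.497, −1.18 and −0.31. In hippocampus Etfa read 4.28 to 4.49 and Mlycd 4.27 to 4.79, not far above the array medians of 3.68 to 3.71. The sizes of their hippocampus differences are therefore not read closely. Heart minus muscle, their genotype differences stood 0.06 ± 0.11 and 0.32 ± 0.19 apart, and neither passed (adjusted p = 0.872 and 0.495). The call of Acadl was lost in 16 of 18 fits without 1 array (adjusted p up to 0.103), and that of Ppard in 4 of 18. These 4 left out wild type muscle array 2 or 3, transgenic muscle array 1 or transgenic hippocampus array 2.

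Between heart and muscle, 2 of the 29 genes differed in their genotype difference (6.9%, where 2.55% of all probe sets did, 1.46% with a higher and 1.09% with a lower difference in heart). With a 1.5-fold minimum as well, 1 of the 29 passed, where 2.02% of all probe sets did. Slc27a1, lower in transgenic muscle and higher in transgenic heart, had a heart difference 0.77 ± 0.13 above its muscle difference (adjusted p = 0.00514), which was called in all 21 other fits (adjusted p up to 0.0363). Ppard, lower in transgenic muscle and at −0.04 ± 0.09 in heart, had 0.51 ± 0.12 (adjusted p = 0.0377). The call of Ppard was lost in 13 of 21 other fits, including 9 of the 12 without 1 array, with an adjusted p of 0.0144 to 0.105. Ucp3, negative in muscle and positive in heart, had 1.02 ± 0.31 (adjusted p = 0.113), and passed only without wild type heart array 3 (1.28, adjusted p = 0.0242).

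In hippocampus limma called 0 of the 29 genes and 0% of all probe sets. In the fit to all arrays 2 members, Decr1 and Mlycd, had an unadjusted p under 0.05, as did 5.04% of probe sets. With the hippocampus arrays alone 2 members, Acot2 and Mlycd, had such a p (6.9%), as did 6.93% of probe sets. Mlycd read 4.59, 4.75 and 4.79 in wild type and 4.49, 4.44 and 4.27 in transgenic hippocampus. All transgenic arrays were lower by a small step (−0.31 ± 0.13, adjusted p = 0.969). Etfa read 4.41, 4.41 and 4.35 against 4.28, 4.47 and 4.49, with overlapping groups (0.02 ± 0.08, adjusted p = 0.9997). Decr1 differed by −0.26 ± 0.10 (adjusted p = 0.913). Transgenic arrays lay fully above for 1 member and fully below for 5, where 5.95% and 7.37% of all probe sets did so. The median difference of the members was −0.00.

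**Figure D3:**
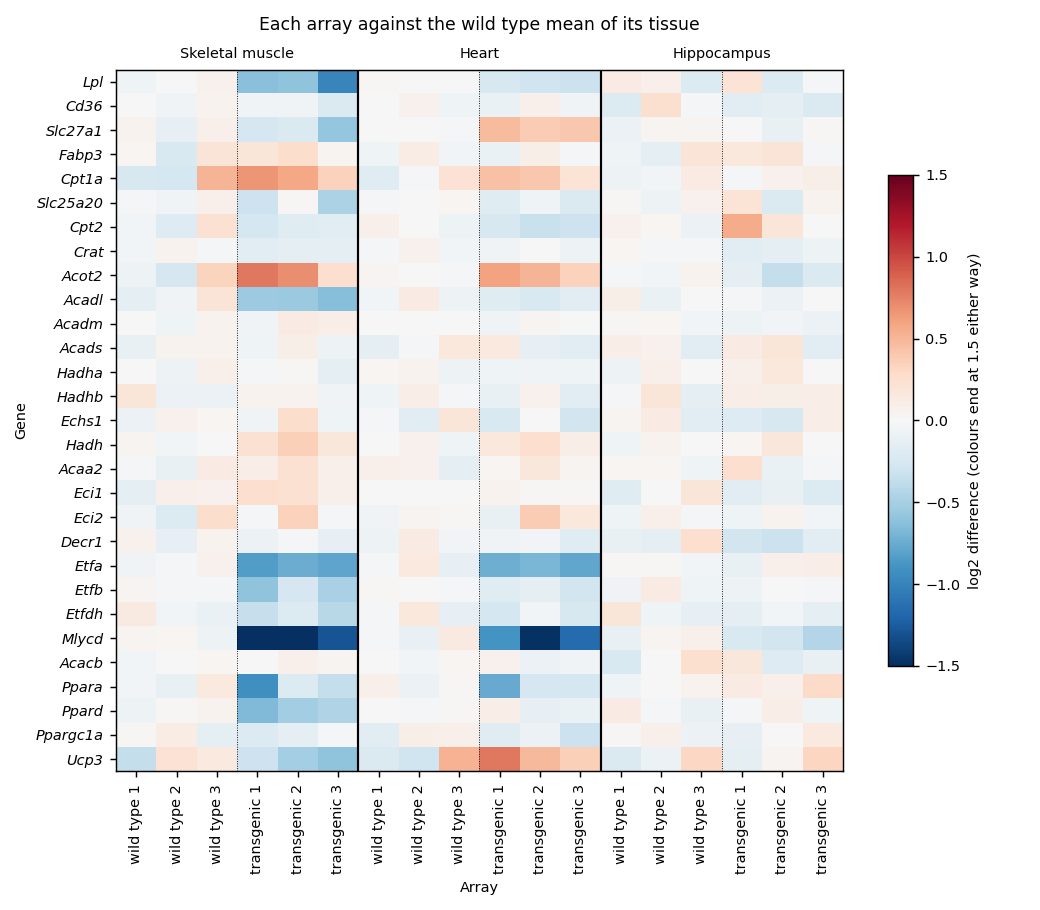
Each array's level minus the wild type mean of the same tissue and gene (log2), for the 29 genes (lines) and 18 arrays (columns, 3 wild type then 3 transgenic in each tissue). Red is above and blue below the wild type mean, with colours ending at 1.5 either way. Mlycd and Etfa are blue on all 6 transgenic arrays of muscle and heart, and hippocampus shows mostly pale colours in both genotypes.

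Among wild type tissues, heart held the highest levels of most members. Relative to skeletal muscle, 25 of 29 genes were higher in heart, Ppard and Ucp3 were lower, and Crat (0.11) and Acacb (0.06) did not pass. Of all probe sets 38.7% were called in that comparison (25.6% higher and 13.1% lower), and the median difference was 1.35 over the members against 0.07 over all probe sets. The 4 uptake genes were higher by 0.49 to 1.67, the 3 dehydrogenase genes by 1.05 to 1.48, the 8 later-step genes by 0.97 to 1.73 and the 3 electron transfer genes by 1.21 to 1.75. Centring each array on its median moved the median of all probe sets from 0.07 to −0.10 and left 24 members higher and 2 lower, with the higher share of all calls at 44% against 66.1% as deposited. After quantile normalization those counts were 24 and 2, and the share 50.7%.

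Ucp3, the uncoupling carrier of skeletal muscle, was 2.54-fold lower in heart (−1.34 ± 0.22, adjusted p = 1.42e-04), at 5.40, 5.32 and 6.14 against 6.60, 7.18 and 7.11 in muscle. Ppard was 1.39-fold lower in heart (−0.47 ± 0.09, adjusted p = 3.75e-04), at 6.62, 6.60 and 6.63 against 7.01, 7.11 and 7.14. For both genes every heart array was below every muscle array. In contrast Ppara was 3.48-fold higher in heart (1.80 ± 0.16, adjusted p = 2.83e-07). Mlycd was higher in heart by 0.36 ± 0.13 (adjusted p = 0.0436), a call lost in 9 of 15 other fits.

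Hippocampus had low levels of most members. Relative to muscle, 25 of 29 genes were lower there, Cpt1a (1.19 ± 0.17) and Slc27a1 (0.32 ± 0.09) were higher, and Acot2 (0.15) and Ppargc1a (0.15) did not pass, where 78.2% of all probe sets were called (70.1% higher and 8.1% lower). The median over the members was −2.25 against 0.67 over all probe sets. The direction of these 4 genes depended on the scaling. After centring, the median of all probe sets was −0.58, the 4 differences were −0.070 for Cpt1a, −0.94 for Slc27a1, −1.11 for Acot2 and −1.11 for Ppargc1a, and 28 members were lower and 0 higher. The higher share of all calls was 89.6% as deposited, 26.4% after centring and 43.3% after quantile normalization. Cd36 read 8.50, 8.44 and 8.55 in wild type muscle, 10.10, 10.17 and 10.04 in heart and 2.53, 2.97 and 2.71 in hippocampus. It stood under the array median in hippocampus only, so the size of that difference (−5.76 ± 0.10 from muscle) is not read closely.

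Relative to heart, 27 of 29 genes were lower in hippocampus and 0 higher, where 76.8% of all probe sets were called (67.3% higher and 9.46% lower). The median over the members was −3.45 against 0.61 over all probe sets. The exceptions were Slc27a1 (−0.18 ± 0.09, adjusted p = 0.1) and Ppard (−0.04 ± 0.09, adjusted p = 0.69), which did not differ beyond their spread as deposited. After centring or quantile normalization all 29 were lower, and the higher share of all calls went from 87.7% to 26% and 44.2%. Acacb read 8.62 to 8.70 in wild type muscle, 8.69 to 8.76 in heart and 3.74 to 4.21 in hippocampus. The hippocampus values lay close to the array medians there, so no size is given for that difference.

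**Figure D4:**
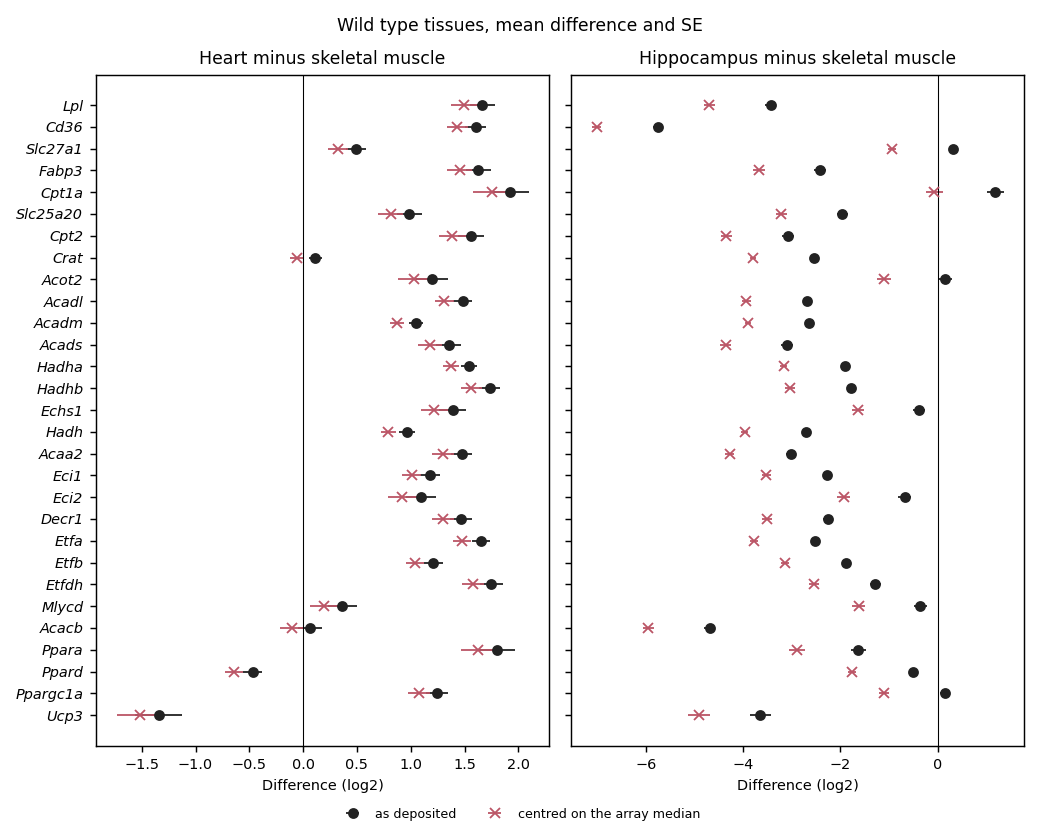
Difference between wild type tissues (log2) of each of the 29 genes, heart minus skeletal muscle and hippocampus minus skeletal muscle, with bars for the SE and n = 3 arrays in each group. Black circles use the deposited values and red crosses arrays centred on their medians. Heart is above muscle for all genes but Ppard and Ucp3 as deposited, and after centring Cpt1a, Slc27a1, Acot2 and Ppargc1a move below 0 in hippocampus.

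Other genes of lipid metabolism were read from 4 lists, with up to 4 called genes of each list and comparison named by the smallest p. In transgenic muscle, genes of lipid droplets and of fatty acid synthesis were called in both directions. Of 25 genes of lipid supply and storage 5 fell and 1 rose (24% called, median difference 0.05). Of all probe sets 8.15% were called in muscle, and 2.37% with the muscle arrays alone. Plin5, a droplet protein that links stores to mitochondria, read 4.50, 4.52 and 5.48 in wild type and 3.09, 3.24 and 3.23 in transgenic muscle. Every transgenic array was lower, and wild type array 3 stood above the other wild type arrays. Plin5 fell by 1.65 ± 0.22 (adjusted p = 1.82e-04), the droplet coat gene Plin3 by 1.37 ± 0.23 (adjusted p = 0.00117), and Lmf1, needed to fold lipoprotein lipase, by 0.83 ± 0.08 (adjusted p = 7.78e-06). Abhd5, the coactivator of adipose triglyceride lipase, rose by 0.39 ± 0.08 (adjusted p = 0.00836). With the muscle arrays alone 3 of these genes passed, Lmf1, Plin5 and the lipase gene Pnpla2 itself (−0.62 ± 0.14), which was named after its values were seen.

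Of 10 genes of fatty acid synthesis and ketone use 4 fell and 1 rose in muscle (50% called, median −0.05). Of all probe sets 8.15% were called there, and 2.37% with the muscle arrays alone. Srebf1, the transcription factor of lipid synthesis, read 5.87, 6.21 and 6.03 in wild type and 4.74, 4.86 and 4.77 in transgenic muscle. Its groups did not overlap, and it fell by 1.25 ± 0.11 (adjusted p = 2.89e-06). The desaturase gene Scd2 fell by 1.32 ± 0.14 (adjusted p = 1.95e-05) and malic enzyme Me1 by 0.80 ± 0.10 (adjusted p = 7.91e-05). The ketone body enzyme gene Bdh1 fell by 0.82 ± 0.20 (adjusted p = 0.0195, lost without 4 of the 6 muscle arrays in turn). Scd1, another desaturase gene, was the 1 that rose (adjusted p = 0.0316, lost without 5 of the 6 muscle arrays in turn). Scd1 was named after its values were seen. Srebf1, Scd2 and Me1 were the 3 called with the muscle arrays alone, and 3 of the list were called when array 2 or 3 of wild type, or array 1 or 3 of transgenic muscle, was left out. Of 21 other regulators 5 rose and 2 fell (33.3% called, median 0.08). Pparg, which encodes the adipocyte receptor PPAR-gamma, rose by 0.67 ± 0.11 (adjusted p = 8.23e-04), and was the only one called with the muscle arrays alone. Ppargc1b, which encodes PGC-1beta, rose by 0.91 ± 0.15 (adjusted p = 0.00105) and the mitochondrial deacetylase gene Sirt3 by 0.53 ± 0.11 (adjusted p = 0.00534). Pdk4, a kinase that restrains glucose oxidation, fell by 0.83 ± 0.18 (adjusted p = 0.00897). Without wild type array 3, 4 of the 21 were called. Of 20 other genes of beta-oxidation 3 were called (15%, the list nearest to the share of all probe sets), with a median of 0.00. Ech1 rose (0.33 ± 0.07), and 2 fell, the peroxisomal genes Crot (−0.56 ± 0.10) and Acox3 (−0.28 ± 0.08). With the muscle arrays alone 0 were called. The adjusted p of these 3 was 0.0114, 0.00172 and 0.0424, and Ech1 and Acox3 were lost without 2 and 5 of the 6 muscle arrays in turn.

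In heart, 7 genes of these lists fell and 0 rose, and none was called with the heart arrays alone. They were the synthetase gene Acsl6 (−0.89 ± 0.11, adjusted p = 3.47e-04), the lipase gene Mgll (−0.40 ± 0.08), Lmf1 (−0.36 ± 0.08), Scd2 (−0.73 ± 0.14), the kinase subunit gene Prkag3 (−0.54 ± 0.12), Amacr (−0.54 ± 0.13) and the dehydrogenase gene Hsd17b10 (−0.45 ± 0.08). Median differences of the lists in heart were −0.06 for other beta-oxidation, −0.08 for lipid supply, −0.01 for regulators and −0.18 for synthesis and ketone use. In that order 10%, 12%, 4.76% and 10% of their genes were called, where 3.19% of all probe sets were. With the heart arrays alone 0.102% of all probe sets were called. Amacr, Lmf1 and Prkag3 were lost without 5, 4 and 4 of the 6 heart arrays in turn. In hippocampus 0 genes of the 4 lists were called. The genotype difference of heart exceeded that of muscle for Plin5 (1.497), Srebf1 (1.12), Crot (0.75), Me1 (0.71) and Lmf1 (0.47), and lay below it for Acsl6 (−1.10) and Ppargc1b (−0.91). In the same order of lists 5%, 12%, 4.76% and 20% were called, where 2.55% of all probe sets were. With the arrays of both tissues alone, Srebf1, Crot and Acsl6 kept that call, and Lmf1 and Ppargc1b also lost it without 8 and 7 of the 12 arrays in turn.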

How the data were processed

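RNA of 18 tissue samples had been hybridised to Affymetrix arrays. The deposited values are log2 levels, 1 per probe set and array, which the authors made with RMA, a background correction, normalization and probe summary; the submitters' processing notes name R 2.10.0. The chip definition, and whether all arrays were normalized together, is not given in the sources used here. Groups came from the sample labels. The platform annotation gave 1 symbol for 21153 of 35382 probe sets, several for 1867 and none for 12362, and genes were named only from the first kind, by the probe set with the highest mean where there were several.

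All values were fitted as deposited with limma 3.58.1 in R 4.3.3, 1 mean per group, with 12 residual degrees of freedom and 2.67 from the prior. The spread of a gene in a tissue therefore draws on the other tissues too. Contrasts gave the genotype difference in each tissue, its difference between tissues and the differences between wild type tissues. Tests were two-sided, adjusted by Benjamini-Hochberg over all probe sets, with a threshold of 0.05. Without counts, the number of arrays limits the precision. The members, the 4 pathway lists, the 10 marker lists and the motifs were chosen with earlier results of these data known. All members are named, with arrays given for called members and for at least 1 uncalled member of each role. Alternatives were other sets of arrays, the replicate number as a block, other scaling, filter, prior, weights, thresholds and probe set choice, and leaving out each array. The procedure was run on simulated data with independent noise and changes planted in transgenic heart only. That setting holds no shift shared by the genes of an array. Figures were drawn with matplotlib 3.10.9.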

Additional observations from a re-analysis of the deposited data

Results flagged for a closer look

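In 5 of the 29 genes the difference between transgenic and wild type was not the same in the 3 tissues by the moderated F test. The F values were 31.3 for Etfa, 20.7 for Mlycd, 17.1 for Slc27a1, 12.8 for Ppard and 10.3 for Acadl. Etfa and Mlycd were lower in transgenic muscle and heart. Their hippocampus differences did not pass, at levels not far above the array medians there. Acadl was lower in transgenic muscle, and its heart (−0.19) and hippocampus (−0.04) differences did not pass.

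In 2 genes the genotype difference of heart stood apart from that of muscle. For Slc27a1 the distance was 0.77 on the log2 scale, with all 3 transgenic arrays lower in muscle and all 3 higher in heart. For Ppard it was 0.51, with all 3 transgenic arrays lower in muscle and overlapping groups in heart.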

How the results depend on the processing

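With the arrays of the compared tissue alone, 4 members were called in muscle in place of 8, 0 in heart in place of 3, and 1 for heart minus muscle in place of 2. The heart minus muscle count was also 1 after quantile normalization, with array weights, with adjusted p under 0.01 and with a 1.5-fold minimum. The F test called 3 in place of 5 after quantile normalization and with adjusted p under 0.01, and muscle 3 with the 1.5-fold minimum. Leaving out the dim probe sets, which also leaves fewer probe sets to adjust over, added Cpt1a, Hadh, Etfdh and Ppara in muscle (adjusted p = 0.0401, 0.0212, 0.0352 and 0.0445), Acot2 in heart (0.0484), and Lpl and Acot2 in the F test (0.0237 and 0.0257). Without each array in turn the counts were 6 to 8 in muscle, 2 in heart, 0 in hippocampus, 1 to 2 for heart minus muscle, 3 to 5 for the F test, 26 to 27 for wild type heart minus muscle, 26 to 28 for hippocampus minus muscle and 27 for hippocampus minus heart.

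Pairing by equal numbers was looked at through correlations over all probe sets, which cannot decide whether equal numbers mark 1 animal. Deviations of same-numbered arrays correlated at −0.031 to 0.040 within a tissue (9 pairs) and −0.054 to 0.047 across tissues (18 pairs). With the replicate number as a fixed block, Ppard was lost for heart minus muscle (count 1, adjusted p = 0.0678) and Acadl from the F test (count 4, adjusted p = 0.0779), Hadh was gained in muscle (count 9, adjusted p = 0.0404), and the other member counts stayed as they were. Of the pathway genes, Acox3 and Prkag3 in muscle and Lmf1 for heart minus muscle were lost (adjusted p = 0.0698, 0.0609 and 0.0651). With the number as a random block, limma changed no member count. In that fit, which blocks across tissues, the consensus correlation was −0.0033. For wild type hippocampus minus muscle the sign turned for 4 genes: Slc27a1 −0.94, Cpt1a −0.070, Acot2 −1.11 and Ppargc1a −1.11 after centring, and −0.46, −0.085, −0.71 and −0.72 after quantile normalization. The F test already uses all tissues and has no fold, so those alternatives have no value. Where no cause is given above, the cause was not tested. With 3 arrays a group the number of arrays limits the precision, and a level near or under the array median, such as Cd36 in hippocampus, gives no close size of a difference.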

Other observations

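On some arrays of muscle and heart many members stood highest or lowest of their group. Wild type muscle array 3 was the highest of its group for 17 of the 29 genes (58.6%, against 32.3% of all probe sets), and array 2 the lowest for 16 (55.2%, against 31.7%). Transgenic muscle array 2 was the highest for 19 (65.5%, against 33.3%), and transgenic muscle array 3 the lowest for 19 (65.5%, against 31.7%). Transgenic heart array 2 was the highest for 17 (58.6%, against 33.3%), and transgenic heart array 3 the highest for 1 and the lowest for 15 (51.7%, against 32.9%). In hippocampus the arrays were the highest for 24.1% to 37.9% of the members, against 31.7% to 35.1% of all probe sets. They were the lowest for 17.2% to 44.8% of the members, against 30.7% to 35.7% of all. The genes of a pathway are not independent, and no test was made of these counts. The median SD of the members within a group was 0.08 to 0.10, against 0.11 to 0.15 over all probe sets. The widest spread in wild type muscle was that of Cpt1a (SD 0.44), in transgenic muscle that of Ppara (0.38) and in wild type heart that of Ucp3 (0.45).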
